A study of Mus musculus with 14 samples.

Results

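Of 6155 EBF1 peaks found with wild-type (wt) EBF1 in A-MuLV pro-B cells, 636 (10.3%) overlapped neither an EBF1 peak of cells with the truncated form dC nor a Brg1 peak of the wt cells. These wild-type-only EBF1 sites without Brg1 are described here. They were chosen from 3 lists of ChIP-seq peaks, EBF1 wt, EBF1 dC and Brg1 wt, all from A-MuLV cells, on chromosomes 1 to 19, X and Y, and a shared stretch of at least 1 bp counted as overlap. Their lack of EBF1 dC and of Brg1 in those lists is therefore the choice itself. The remaining EBF1 wt peaks formed 3 classes: 800 called with wt alone and with Brg1, 1089 called with both EBF1 forms and without Brg1, and 3630 called with both and with Brg1.

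A-MuLV cells are pro-B cells transformed by the Abelson leukaemia virus. They came from EBF1 fl/fl C57BL/6 fetal liver, and their own EBF1 had been replaced by EBF1 wt or by dC, which lacks the C-terminal domain, carried on a pMys vector with GFP. The other Brg1 lists came from fetal liver EBF1 -/- c-kit+ lymphocyte progenitors of C57BL/6 embryos, 16 to 18 days old, kept for 14 to 20 days on OP9 stromal cells with IL7, SCF and Flt3. All 5 of these cultures lacked their own EBF1 and were transduced with pMys vectors. The empty vector carried GFP alone, and the others added EBF1 wt, dC, dPLD, which lacks residues 480 to 520, or F-GATA3, whose C-terminal domain was exchanged for TA1 of GATA3. By their labels, pro-B cells formed with wt and F-GATA3, a partial block before that stage was seen with dC and dPLD, and a block with the empty vector, so the EBF1 version and the stage cannot be told apart. Whether each A-MuLV line was 1 clone is not given in the sources used here. There was 1 library per group. No test across conditions was possible, no spread between replicates could be measured, and nothing below is called particular to the members. Exact Clopper-Pearson 95% intervals after shares cover counting error over sites only.

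EBF1 is a transcription factor that, with E2A and Pax5, sets up the B-cell programme, and it can bind DNA in chromatin that is still closed. It binds as a dimer to a palindromic element, and its C-terminal domain is known for a part in opening chromatin. Brg1, the product of Smarca4, is the motor of BAF remodelling complexes, which slide or evict nucleosomes and keep enhancers and promoters accessible.

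No sequence of the peaks themselves was read, but 12 of the members overlapped a promoter window, which runs from 250 bases before to 50 after a gene start in RefSeq (GRCm38.p6). The table covers the chromosomes of 612 members. Of the 12 windows, 8 belong to protein-coding genes (Trappc2, Pkib, Fetub, Calr4, Klk4, Apbb1, Cibar2 and Olfr98) and 4 to long non-coding RNAs (Gm39984, Gm5122, Gm32013 and Gm32798). The letters CCCNNGGG, which read the same on both strands and were added after the data had been seen, were in 7 of the 12 windows, against 13.7% of all 32851 windows. The EBF1 core element, CCCNNGGG with a T before it and an A after it, was in 2 of the 12, Gm39984 and Olfr98, against 0.904% of all. Every core element thus also holds the shorter letters. A match is a description of the letters, not a site. The windows of 5 members are printed because they show these letters beside a measured EBF1 summit. Each is given 5′ to 3′ on its gene's strand. Capitals mark the core element in Gm39984 and Olfr98, and CCCNNGGG, with overlapping matches joined, in Gm32798, Pkib and Gm5122.
Gm39984: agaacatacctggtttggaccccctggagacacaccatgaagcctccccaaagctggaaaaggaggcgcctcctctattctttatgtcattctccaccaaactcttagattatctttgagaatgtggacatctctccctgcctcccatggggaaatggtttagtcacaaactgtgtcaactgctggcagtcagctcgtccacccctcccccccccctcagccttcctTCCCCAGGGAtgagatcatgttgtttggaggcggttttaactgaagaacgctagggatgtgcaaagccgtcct
Olfr98: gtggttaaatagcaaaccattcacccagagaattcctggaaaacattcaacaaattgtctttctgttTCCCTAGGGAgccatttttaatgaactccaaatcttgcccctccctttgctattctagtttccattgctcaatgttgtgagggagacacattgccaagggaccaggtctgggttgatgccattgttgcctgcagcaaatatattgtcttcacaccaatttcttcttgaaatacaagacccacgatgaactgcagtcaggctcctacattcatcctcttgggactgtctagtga
Gm32798: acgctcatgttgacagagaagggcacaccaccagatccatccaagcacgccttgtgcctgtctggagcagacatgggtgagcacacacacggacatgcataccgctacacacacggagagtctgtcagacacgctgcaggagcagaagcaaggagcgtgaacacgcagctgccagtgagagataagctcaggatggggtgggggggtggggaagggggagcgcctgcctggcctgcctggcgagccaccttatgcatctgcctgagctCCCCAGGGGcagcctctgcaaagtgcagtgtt
Pkib: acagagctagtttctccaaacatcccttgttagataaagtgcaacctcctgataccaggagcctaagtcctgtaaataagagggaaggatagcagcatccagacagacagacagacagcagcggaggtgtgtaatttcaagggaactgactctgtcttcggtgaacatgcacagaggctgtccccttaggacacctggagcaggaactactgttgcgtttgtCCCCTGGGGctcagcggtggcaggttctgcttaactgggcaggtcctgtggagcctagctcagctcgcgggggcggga
Gm5122: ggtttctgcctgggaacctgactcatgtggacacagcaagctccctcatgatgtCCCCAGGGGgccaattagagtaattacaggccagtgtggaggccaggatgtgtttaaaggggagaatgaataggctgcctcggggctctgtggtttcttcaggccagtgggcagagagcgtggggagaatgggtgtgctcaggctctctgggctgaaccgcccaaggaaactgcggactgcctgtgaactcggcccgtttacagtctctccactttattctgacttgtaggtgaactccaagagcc
The Gm39984 window is chr2:167079190-167079489 on the minus strand, and its match begins at base 228, counted from 1 at the 5′ end. The centre of that match lay 72.5 bp from the EBF1 summit, and the EBF1 fold there was 11.5. The window also holds CCCATGGG from base 144, left in small letters, with its centre nearer, 12.5 bp from the summit. The Olfr98 window is chr17:37263613-37263912 on the minus strand, its match begins at base 68, and the summit lay 7.5 bp from its centre (fold 5.70). Olfr98 encodes an olfactory receptor. For Gm32798 (chr2:118887829-118888128, plus strand) the nearest CCCNNGGG centre was 0.5 bp from the summit. For Pkib (chr10:57631731-57632030, plus strand), which encodes an inhibitor of protein kinase A, it was 8.5 bp away. For Gm5122 (chr9:61016819-61017118, plus strand) it was 21.5 bp away. Counting every window that a peak overlapped, the core element was in 2 of 13 at the members, 0 of 17 (wt alone with Brg1), 8 of 51 (both forms without Brg1) and 64 of 560 (both forms with Brg1). In the same order of classes the letters CCCNNGGG were in 53.8%, 23.5%, 39.2% and 45.2% of the windows.

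The members were the weakest and narrowest of the 4 classes of EBF1 wt peak. Fold here is a value the authors gave each peak, the ChIP pileup at the summit over the local background, and is used here only within the EBF1 wt list. The median fold of the members was 7.05 (quartiles 6.53 and 8.36, range 4.44 to 20.9). It was 8.62 at the sites of wt alone with Brg1, 8.02 at those of both forms without Brg1 and 10.7 at those of both forms with Brg1. Median width was 302 bp for the members (quartiles 271 and 342 bp), against 350, 330 and 394 bp in the same order. The curves of fold and width by class show the members to the left over most of their range. Split by fold into 4 bins, the whole EBF1 wt list held 22.0% members in its weakest bin (19.9-24.1%, folds up to 7.09), then 12.7%, 6.16% and, at folds of 13.1 or more, 0.949% (0.532-1.56%). Thus 337 of the 636 members came from the weakest bin and 15 from the strongest. These values are from a list that chose the members, so they are a description.

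**Figure D1:**
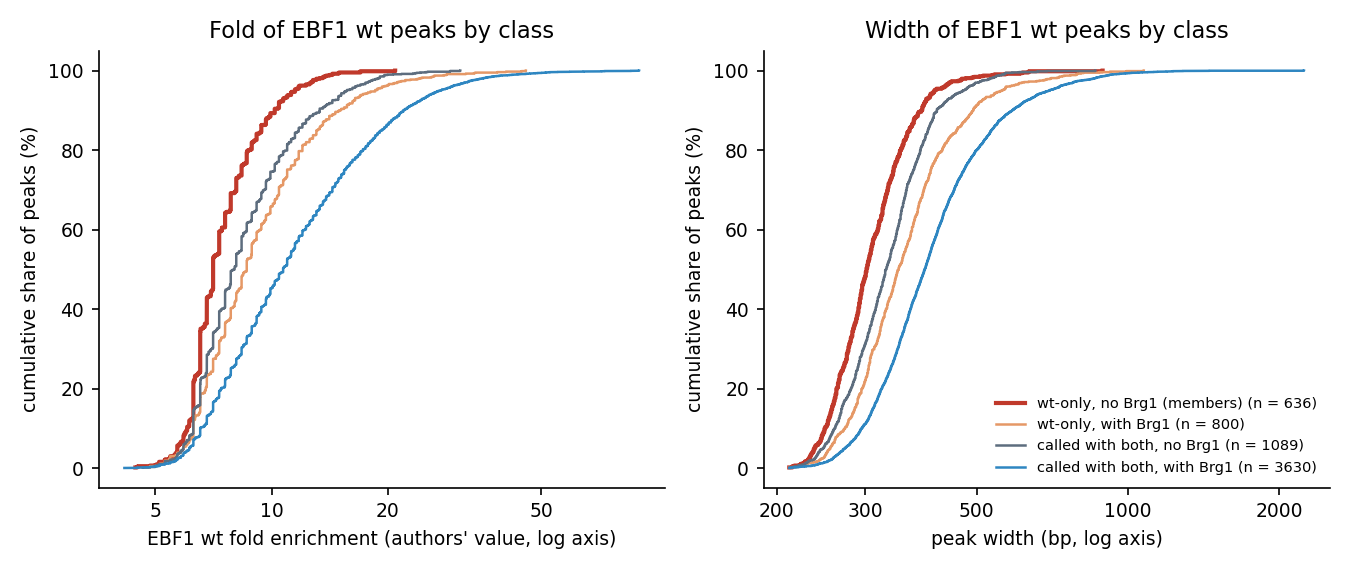
Cumulative share of EBF1 wt peaks (%) against fold enrichment (left, log axis) and peak width in bp (right, log axis), with 1 line per class of peak. The line of the 636 members lies left of the others over most of the range, with medians of 7.05 for fold and 302 bp for width.

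The folds could be turned back into fragments. MACS2 divides the summit pileup plus 1 by the background plus 1, so each trial number of fragments and the deposited fold set a background. For all 636 members a whole number of fragments then gave back the deposited −log10 p to within 0.05. The members had a median of 28 fragments at the summit (quartiles 25 and 33, range 23 to 79), against 38 for all EBF1 wt peaks that could be solved (n = 6141). At 448 members (70.4%) the background stood at its lowest value, 2.83 fragments, where 1 fragment moves the fold by 0.261. A count of 28 has an exact Poisson 95% interval of 18.6 to 40.5 fragments, or folds of 5.12 to 10.8 at that background. The counting error of a typical member thus covers the whole range between the quartiles and reaches below the lowest pileup in the list, 23 fragments. Depth in total reads is unknown for these lists, so the absence of a peak does not show the absence of the protein.

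Most members lay well away from the peaks they were chosen to miss. The nearest EBF1 dC peak was at a median of 38541 bp (quartiles 13138 and 101364 bp), 13 members (2.04%) had one within 1 kb, and the closest was 310 bp off. The nearest A-MuLV Brg1 wt peak was at a median of 20866 bp (quartiles 5468 and 53253 bp), and 47 members (7.39%) had one within 1 kb. Just inside the rule were members nearest Mnd1 (37 bp from a Brg1 peak, EBF1 fold 10.5), Rpia (41 bp, 7.81) and Dpy19l1 (43 bp, 7.44). Just outside were peaks nearest Sap30bp (10 bp shared with a Brg1 peak, fold 7.58), Kdm6b (25 bp, 6.54) and Il2ra (29 bp, 6.09), all called with wt alone. The nearest other member was at a median of 814154 bp, and 14 members had one within 10 kb. No reference spacing for as many sites is given here, so this does not show whether the members cluster.

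**Figure D2:**
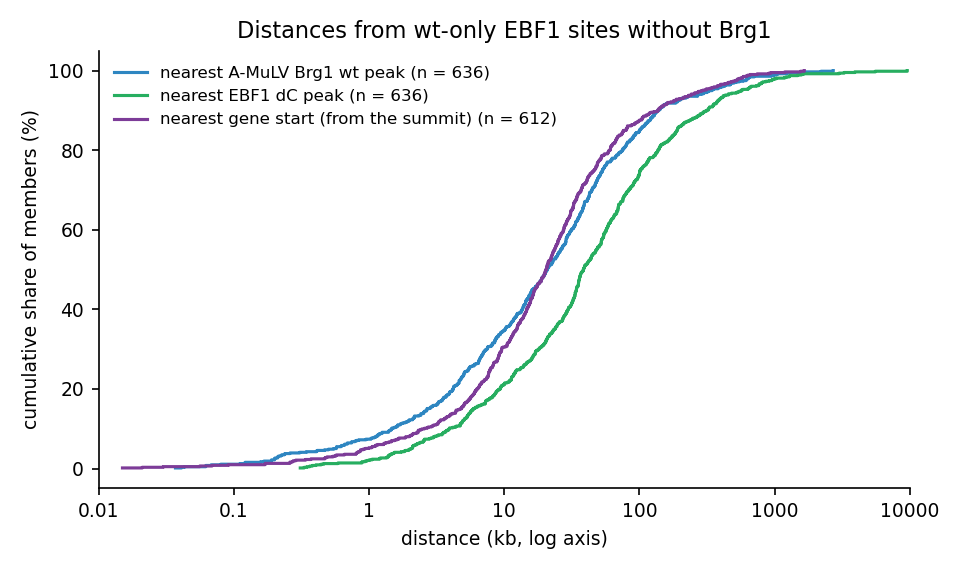
Cumulative share of the members (%) against distance in kb (log axis) to the nearest A-MuLV Brg1 wt peak, EBF1 dC peak and listed gene start, the last from the EBF1 summit over the 612 members on chromosomes with promoter windows. Few members lie within 1 kb of any of them (7.39%, 2.04% and 5.23%).

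By location, the members were closer to the sites of wt alone with Brg1 than to those of both forms in their distance from gene starts. Bodies of protein-coding genes held 349 members (54.9%, 50.9-58.8%), against 50.6% of the sites of wt alone with Brg1 (47.1-54.1%) and 59.3% of all EBF1 wt peaks. A further 100 lay within 10 kb of a body, 187 (29.4%) lay farther away, and 62 (9.75%, 7.56-12.3%) were over 100 kb from any. The last share was 14.2% at wt alone with Brg1 (11.9-16.9%), 3.67% at both forms without Brg1 (2.64-4.97%) and 3.61% at both forms with Brg1 (3.03-4.27%). The immunoglobulin kappa locus, Igk, does not count as a protein-coding body, so peaks inside it can be far from any. It held 8 members, 40 sites of wt alone with Brg1, 1 of both forms without Brg1 and 13 of both forms with Brg1. A gene start lay within 1 kb of the summit at 32 members (5.23%, 3.60-7.30%). It did so at 4.74% of the sites of wt alone with Brg1 (3.36-6.48%), 8.42% of those of both forms without Brg1 (6.82-10.3%) and 21.4% of those of both forms with Brg1 (20.0-22.8%). Starts on chromosome 18, which holds 24 members, were not used here. The starts elsewhere are those of the promoter windows, and some genes may lack one: the member inside Slc25a37 lay 218510 bp from the nearest. Members near an unlisted start thus count as far from a start. The median distance from summit to start was 20401 bp for the members and 13363 bp for all EBF1 wt peaks. Members were found on every autosome and X, from 36 of 514 EBF1 wt peaks on chromosome 11 (4.95-9.56%) to 7 of 45 on X (15.6%, 6.49-29.5%). Chromosome 6, which holds Igk, had 46 of 342 (13.5%, 10.0-17.5%), 8 of them in Igk. Chromosomes 3 (13.4%) and 18 (13.6%) had similar shares. The interval of chromosome 6 lies above that of chromosome 11, which had the lowest share of all.

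Genes that mark the B lineage often had an EBF1 wt peak nearby, and their share with a member was near that of all genes. Within 10 kb of the gene body, 23 of 30 B-lineage genes had an EBF1 wt peak, against 19.9% of protein-coding genes, and 1 had a member, against 2.51%. The 1 gene is Ikzf3, which encodes the lymphoid factor Aiolos. Its member (chr11:98542559-98542908, EBF1 fold 8.62) lies inside the gene, 2537 bp from the nearest A-MuLV Brg1 wt peak. Ebf1 itself had 4 EBF1 wt peaks within 10 kb and Smarca4 had 1, all of both forms with Brg1, and Gata3 had none. The other lists held 0 or 1 gene with a member each. Among 16 T-lineage genes Cd247, the zeta chain of the T-cell receptor complex, had a member (fold 6.53). Among 10 erythroid and megakaryocyte genes Epor, the erythropoietin receptor, had one (5.75), and among 16 BAF and PBAF genes Arid1b, a BAF subunit, had one (6.04). The 12 innate lymphoid and NK, 14 myeloid, 12 progenitor and 14 ubiquitously expressed genes had none. The 11 stromal genes, which would mark OP9 cells, had neither a member nor any other EBF1 wt peak. With 50 kb, against 5.81% of all genes, members were also counted at Irf4, a B-cell factor (fold 7.84), Cd3e, a T-cell receptor chain (5.29), Itgam, a myeloid integrin (6.53), and the PBAF gene Pbrm1 (7.32).

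At the immunoglobulin kappa locus, Igk (chr6:67555636-70726754), where light-chain gene segments are joined in B cells, 8 of 62 EBF1 wt peaks were members (12.9%), close to the 10.3% of the whole list. Another 40 of the 62 were wt alone with Brg1. In fetal liver, the wt list had Brg1 at 4 of the 8, the F-GATA3 list at 3, the dPLD and dC lists at 1 each and the empty-vector list at 0. Over all EBF1 wt peaks the shares were 66.9%, 62.9%, 59.2%, 52.5% and 17.0% in that order of lists. With 8 sites no order of the lists is read as a trait of the locus. At the heavy-chain locus, Igh, 0 of 13 EBF1 wt peaks were members. Igk and Igh were looked at because earlier results of these data had singled them out.

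The highest members were led by a site 3713 bp from Smco2 (chr6:146845997-146846397), with an EBF1 fold of 20.9 and 79 fragments at the summit. Next came sites nearest Ptpn1, a tyrosine phosphatase gene 110928 bp away (chr2:167819397-167819822), and inside Cmip (chr8:117388424-117388799), both at 17.0. The Cmip site had an EBF1 dC peak 331 bp away and an A-MuLV Brg1 wt peak 408 bp away, so it sits beside, rather than apart from, the peaks it was chosen to miss. Sites inside Tnxb, which encodes the matrix protein tenascin X (15.0), nearest Grm7, a glutamate receptor gene (14.9), inside Iqcj (14.4) and nearest Tomm20, a mitochondrial import receptor gene (14.4), followed. Then came sites nearest Exoc3l4 (14.1), inside Neurod2, a neuronal transcription factor gene (13.8), inside Bmp7, a growth factor gene (13.6), and inside Trmt1, a tRNA methyltransferase gene (13.6). The 8 that came next, 1 per gene, were at Fam13b, Ptprf, Sugp1, Sult6b1, Ppargc1b, Tmem79, Cdk18 and Tceanc2, with folds down to 12.7. Of these 19 sites 12 lay inside a gene body. Brg1 was called in fetal liver at 4 of them with F-GATA3, 1 with wt, 1 with dC and 0 with dPLD or the empty vector. The Smco2, Ptpn1, Exoc3l4 and Fam13b sites had Brg1 with F-GATA3 alone, at folds of 5.31, 6.19, 9.83 and 5.82.

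**Figure D3:**
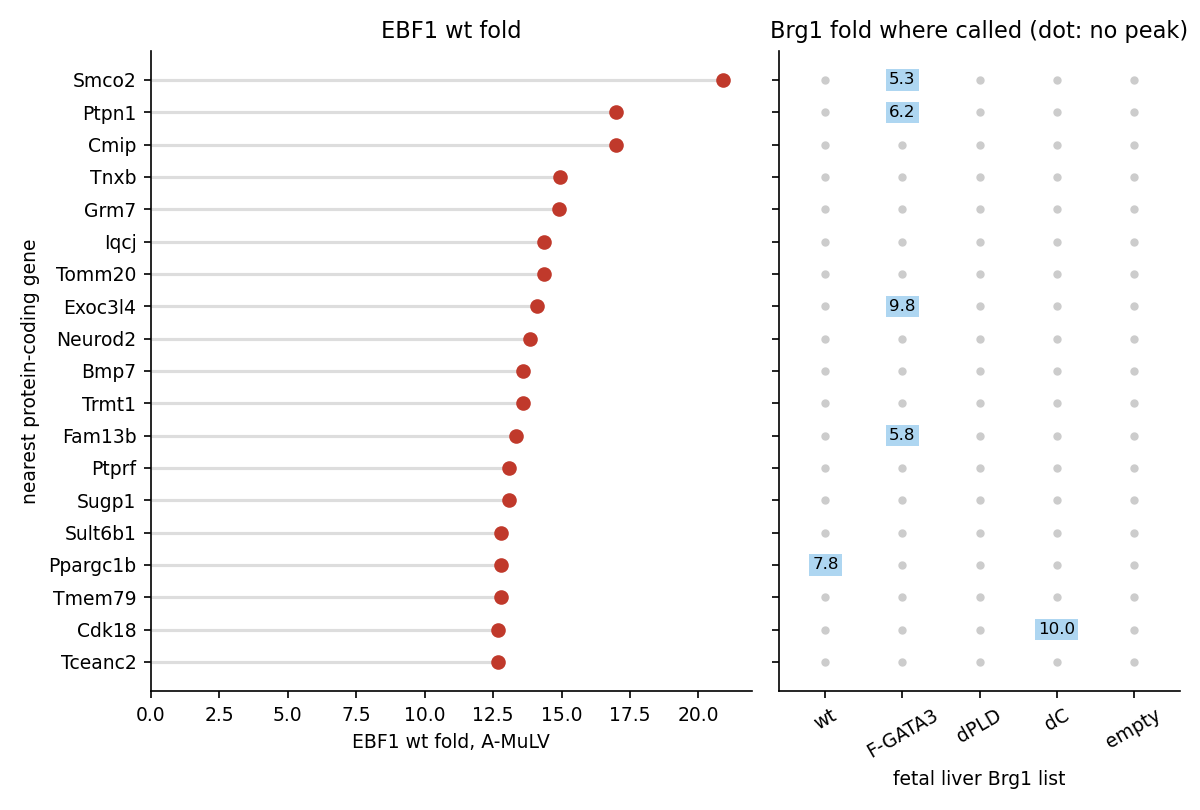
EBF1 wt fold in A-MuLV cells (left, horizontal axis) of 19 members with high fold, 1 per nearest protein-coding gene (vertical axis), and the fold of the Brg1 peak in each of the 5 fetal liver lists (right; a grey dot means no peak). The folds run from 20.9 to 12.7, and 6 of the 19 have a Brg1 peak in any fetal liver list.

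The fetal liver Brg1 lists were not used to choose the members. There, Brg1 was called at a minority of them in each list, and more often with wt and F-GATA3 than with dPLD and dC. With wt it was called at 144 of 636 members (22.6%, 19.4-26.1%), against 66.9% of all EBF1 wt peaks. With F-GATA3 it was called at 143 (22.5%, 19.3-25.9%; all EBF1 wt peaks 62.9%). With dPLD it was called at 89 (14.0%, 11.4-16.9%; 59.2%) and with dC at 59 (9.28%, 7.14-11.8%; 52.5%). With the empty vector it was called at 12 (1.89%, 0.979-3.27%; 17.0%). Each share lies below that of the other 3 classes in the same list, with intervals that do not overlap. The classes with Brg1 were chosen for an A-MuLV Brg1 wt peak, and all EBF1 wt peaks include them. Neither is thus a like background, here or below. The class of both forms without Brg1 also lacks A-MuLV wt Brg1 but differs in EBF1 dC, which the choice used as well. Its shares were 43.7% (wt), 35.3% (F-GATA3), 37.3% (dPLD), 30.9% (dC) and 5.60% (empty vector). The name without Brg1 holds for the A-MuLV wt list: 201 members (31.6%, 28.0-35.4%; all EBF1 wt peaks 73.2%) had Brg1 in at least 1 fetal liver list.

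The other classes stayed above the members when weighted by EBF1 fold in 4 bins, a coarse match. The strongest bin starts at a fold of 8.36 and has no upper limit. Members in it reach 20.9, and sites of wt alone with Brg1 reach 45.6, so folds inside that bin were not matched. When the other classes were weighted to the members' folds in 4 bins, the wt share was 48.6% at the sites of wt alone with Brg1 (unweighted 46.5%) and 41.7% at those of both forms without Brg1 (43.7%). For F-GATA3 the weighted shares were 47.7% and 33.5%, for dPLD 34.6% and 37.0%, for dC 24.4% and 30.6%, and for the empty vector 7.46% and 5.83%. Among the members themselves the wt share did not rise with EBF1 fold: it was 21.4%, 23.3%, 25.4% and 20.2% from the weakest to the strongest bin, and for dC it was 9.09%, 12.8%, 9.39% and 6.55%.

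**Figure D4:**
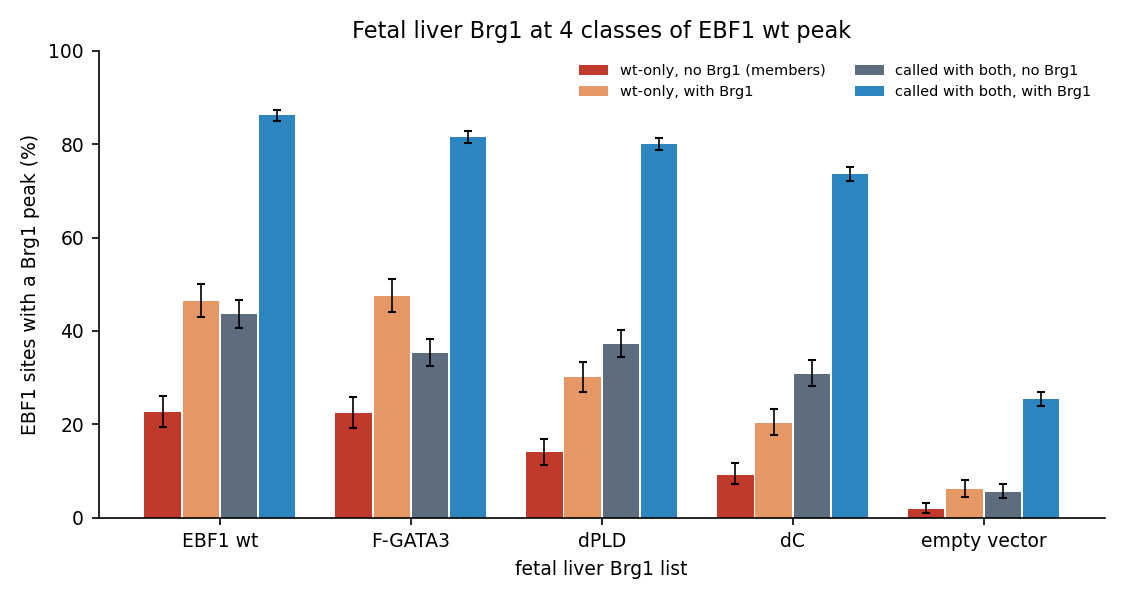
Share of EBF1 wt peaks (%) with an overlapping Brg1 peak in each of the 5 fetal liver lists, with 1 bar per class of peak and exact 95% intervals (counting error only). The members have the lowest bar in every list, from 22.6% with wt to 1.89% with the empty vector.

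Site by site, the altered EBF1 versions parted, in some pairs by about as much as over all EBF1 wt peaks. Brg1 was called with wt and not dC at 96 members and the reverse at 11, so 89.7% of the sites that differed had it with wt (82.3-94.8%). Over all EBF1 wt peaks the same count was 995 (16.2% of them) against 105 (1.71%), or 90.5%, so the members lie near that background. F-GATA3 had Brg1 without dC at 99 members and the reverse at 15 (86.8%, 79.2-92.4%). Over all EBF1 wt peaks it was 919 (14.9%) against 278 (4.52%), or 76.8%. F-GATA3 had it without dPLD at 76 and the reverse at 22 (77.6%, 68.0-85.4%), against 578 (9.39%) and 353 (5.74%), or 62.1%, over all. Wt had it without dPLD at 67 and the reverse at 12 (84.8%), against 601 (9.76%) and 127 (2.06%), or 82.6%, over all. The dPLD list had it without dC at 37 and the reverse at 7 (84.1%), against 502 (8.16%) and 86 (1.40%), or 85.4%. Both of these pairs also lie near the share over all EBF1 wt peaks. Wt and F-GATA3 split evenly, with 42 against 41 members (50.6%, 39.4-61.8%), where over all EBF1 wt peaks wt led with 495 (8.04%) against 246 (4.00%), or 66.8%. These lists differ in length. With every fetal liver list held to its 17687 strongest peaks, the shares of members were 16.4% for F-GATA3, 11.9% for wt, 7.39% for dPLD and 5.35% for dC, and the empty-vector share stayed at 1.89%. Over all EBF1 wt peaks they were then 54.3% for both F-GATA3 and wt, 48.6% for dPLD, 41.7% for dC and 17.0% for the empty vector. At equal length the members' F-GATA3 share thus stood above the wt share, and their wt, dPLD and dC shares moved by over 1.5 times.

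The combinations show the same order. Of the 201 members with Brg1 in a fetal liver list, 38 had it with F-GATA3 alone (5.97% of the members, against 3.3% of all EBF1 wt peaks), 36 with wt and F-GATA3 alone (5.66% against 5.51%) and 27 with wt alone (4.25% against 3.38%). Another 36 had it with all 4 EBF1 versions and not the empty vector (5.66% against 31.2%), and 23 with all but dC and the empty vector (3.62% against 5.57%). Brg1 in the wt or F-GATA3 list but absent from both the dC and dPLD lists was seen at 103 members (16.2%, 13.4-19.3%), against 12.3% of all EBF1 wt peaks. The reverse, dC or dPLD with neither wt nor F-GATA3, was seen at 14 (2.20%, 1.21-3.67%), against 2.05%. Of the 144 members with Brg1 in the wt list, F-GATA3 kept 102 (70.8%, 62.7-78.1%), dPLD 77 (53.5%, 45.0-61.8%), dC 48 (33.3%, 25.7-41.7%) and the empty vector 8 (5.56%, 2.43-10.7%). For all EBF1 wt peaks with Brg1 in that list the shares were 88.0%, 85.4%, 75.8% and 24.7%. Among the sites of wt alone with Brg1, dC kept 41.9% (36.9-47.1%), an interval that overlaps that of the members, and dPLD kept 61.3% (56.1-66.3%). Among those of both forms without Brg1, dC kept 64.3% (59.8-68.6%).

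**Figure D5:**
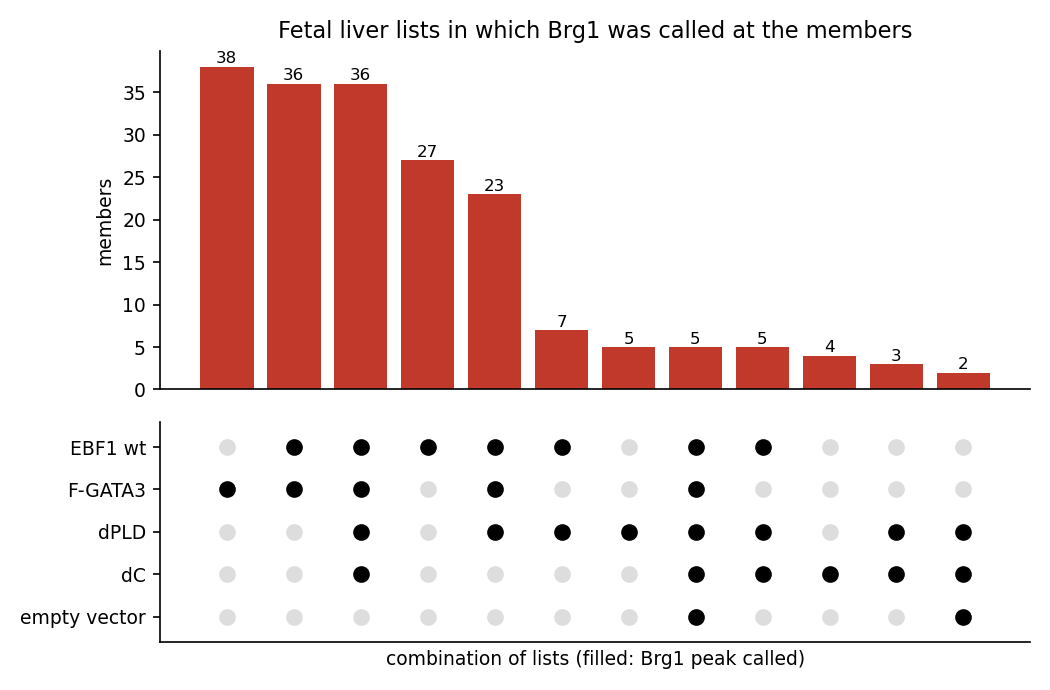
Number of members (vertical axis, top) with Brg1 called in each combination of the 5 fetal liver lists (filled circles, bottom), for the 12 most frequent combinations, with the 435 members that had Brg1 in none left out. The 5 tallest bars are F-GATA3 alone (38), wt with F-GATA3 (36), all 4 EBF1 versions (36), wt alone (27) and all versions but dC (23).

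Where fetal liver Brg1 was called at the members, its summit was usually close to the EBF1 summit in the wt and F-GATA3 lists, and less often in the others. Only Brg1 peaks that overlap the EBF1 peak were counted, so some closeness comes with the count. Wider peaks also leave room for larger gaps. Median widths at the members were 852 bp (wt), 818 bp (F-GATA3), 1035 bp (dPLD), 1137 bp (dC) and 1021.5 bp (empty vector). The part of width in the gaps was not tested, and no gaps are given for other EBF1 wt peaks. In the wt list the Brg1 and EBF1 summits were a median of 52 bp apart, and 118 of 144 were within 200 bp. The median was 43 bp in the F-GATA3 list (122 of 143 within 200 bp), 69 bp in the dPLD list (54 of 89), 133 bp in the dC list (32 of 59) and 330.5 bp in the empty-vector list (3 of 12). The Brg1 peaks were of ordinary height for their lists: the median fold at the members was 6.95 in the wt list (whole list 7.20), 7.26 for F-GATA3 (6.78), 6.25 for dPLD (6.86) and 6.94 for dC (7.14). Those at the other EBF1 wt peaks were higher in these 4 lists, with medians of 9.55, 8.64, 8.68 and 8.99 in the same order. In the empty-vector list the median was 6.35 at the 12 members, 5.95 at the other EBF1 wt peaks and 6.13 over the list. Fetal liver Brg1 peaks are wide (median 1103 bp in the wt list, 381 bp in the A-MuLV wt list). Of the 144 wt peaks at members, 15 (10.4%, 5.95-16.6%) also reached an A-MuLV Brg1 wt peak beside the member.

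The strongest fetal liver wt Brg1 peak at a member was inside Dscaml1, an adhesion molecule gene (chr9:45586558-45586954). Its wt fold was 16.3, and the F-GATA3, dPLD and dC folds were 11.6, 8.56 and 5.48, with no peak for the empty vector. Pkib, whose promoter window is printed above, had 14.9, 16.3, 8.62 and 4.85 in that order (wt, F-GATA3, dPLD, dC) and again none with the empty vector. Inside Stab1, a scavenger receptor gene, the folds were 14.7, 9.03, 10.3 and 11.8, and that member is also the one counted at Pbrm1. The sites nearest N4bp1 (15.3, 9.90 and 6.60) and Cep85l (14.1, 6.98 and 7.66) had Brg1 with wt, F-GATA3 and dPLD and none with dC. Folds of different lists stand side by side here and are not compared. The other 5 of the 10 highest were nearest Ttc39c (wt fold 14.9), Ric1 (14.4), Uaca (14.4), Cibar2 (13.2) and Snap47 (12.5), each with Brg1 in the dC list as well. The site nearest Uaca is the one in the Gm5122 promoter window.

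Members with F-GATA3 Brg1 and none with dC were highest inside Eva1c (F-GATA3 fold 13.3, wt 6.28). Next came a site 64757 bp from Cebpb, a myeloid transcription factor gene (12.6, no wt peak), one inside Gse1 (11.3, wt 6.37), one nearest Lifr, a cytokine receptor gene (11.0, wt 4.81), and one nearest Zfp236 (11.0, wt 8.00). None of these 5 had a dPLD peak.

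Only 5 members had Brg1 in all 5 fetal liver lists, against 980 of all EBF1 wt peaks (0.786% and 15.9%). They were at Snap47, Uaca, Faap100, which encodes a subunit of the Fanconi anaemia core complex, Sfxn5 and Clint1. Their empty-vector folds were 4.96, 11.5, 7.09, 5.52 and 6.48. At 3 of them, Snap47, Faap100 and Clint1, an A-MuLV Brg1 wt peak lay 68, 190 and 167 bp from the member.

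In A-MuLV cells with dC, whose Brg1 list did not enter the choice, Brg1 was called at 8 members (1.26%, 0.545-2.46%), against 47.0% of all EBF1 wt peaks. The members' share moved to 3.21% with summits no more than 200 bp apart, 2.90% with a shorter EBF1 dC list and 0.378% with Brg1 peaks of −log10 q at least 10. With the lists as deposited, the share was 10.8% at wt alone with Brg1 (8.69-13.1%), 19.1% at both forms without Brg1 (16.8-21.6%) and 71.4% at both forms with Brg1 (69.9-72.9%). The 47.0% includes sites with an A-MuLV Brg1 wt peak, which the choice left out of the members, so it is not a like background. The 8 sites were at Mnd1, Tube1, a tubulin gene, Faap100, Slc25a37, a mitochondrial iron carrier gene, Itpr1, a calcium channel gene, Ofd1, Ltb, which encodes lymphotoxin beta, and Lemd2. Their Brg1 dC folds ran from 3.26 to 6.42, with a median of 4.23 against 5.10 in the whole list. Fetal liver wt Brg1 was called at 6 of the 8 and fetal liver dC Brg1 at 5. Over all EBF1 wt peaks the shares were 66.9% and 52.5%, so these counts are near them.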

How the data were processed

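The 9 deposited peak lists, 1 per ChIP library, were used; the 5 inputs and the reads were not analysed here. MACS2 2.1.2, SAMtools 1.9, Bowtie2 2.3.3.1 and deepTools 3.3.1, with the build GRCm38, are listed in the submitters' processing notes. Per the deposited peak format, each list gives the authors' fold (a ratio), −log10 p and −log10 q at the summit, and a deposited score that is 10 times the −log10 q, rounded down. Calling thresholds, duplicate handling and input pairing are not given in sources used here. The lowest −log10 q was near 10 in the EBF1 and fetal liver Brg1 lists but 1.37 in the A-MuLV Brg1 wt list. Formaldehyde was at 2% for fetal liver and 1% for A-MuLV cells, with EGS as a second crosslinker for Brg1 alone, per the labels.

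Overlaps, gaps and exact intervals were computed with Python 3.11.15, pandas 2.3.3 and scipy 1.17.1, and the overlap and pileup routines were checked on simulated data. Members, gene lists (9 lists, 135 genes) and the rules for naming genes were chosen with earlier results of these data known. Peaks were named by the nearest of 21883 protein-coding gene intervals (RefSeq, GRCm38.p6), ties going to the shorter gene. Named sites are the 20 highest members (1 is not reported here), list genes with a member, the 10 highest by fetal liver wt Brg1, the 5 highest with F-GATA3 and no dC Brg1, those in all 5 fetal liver lists, those with A-MuLV dC Brg1, 3 on each side of the rule, those in promoter windows, and Ebf1, Gata3 and Smarca4.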

Additional observations from a re-analysis of the deposited data

How the results depend on the processing

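No paired analysis was possible because each group had 1 library. Requiring 50% of the shorter peak to be shared, no EBF1 dC or Brg1 wt peak within 1000 bp, or a −log10 q of at least 5 in the Brg1 lists left the members' shares, width and fold within their intervals. The members numbered 583 to 781 under these settings, 716 with summits no more than 200 bp apart and 930 with the EBF1 dC list held to 6155 peaks. With EBF1 wt peaks at a −log10 q of at least 20 there were 142 members, with a median width of 358 bp, a median fold of 9.93, 59.9% in gene bodies, and fetal liver Brg1 at 18.3% (wt), 10.6% (dPLD) and 4.93% (dC). With summits no more than 200 bp apart the fetal liver shares were 18.3% (wt), 18.9% (F-GATA3), 8.80% (dPLD), 5.59% (dC) and 0.698% (empty), and A-MuLV dC Brg1 stood at 3.21%. With the shorter EBF1 dC list they were 27.1% (wt), 18.6% (dPLD) and 13.0% (dC), and 2.90% for A-MuLV dC Brg1. With fetal liver lists of equal length they were 11.9% (wt), 16.4% (F-GATA3), 7.39% (dPLD) and 5.35% (dC). Of the settings added after the data had been seen, a −log10 q of at least 10 in all Brg1 lists gave 1058 members, a median width of 314 bp, fetal liver shares of 29.5% (wt), 29.3% (F-GATA3), 18.6% (dPLD) and 12.4% (dC), and 0.378% for A-MuLV dC Brg1. A −log10 q of at least 20 in the fetal liver lists gave 11.9% (wt), 12.3% (F-GATA3), 7.08% (dPLD), 5.50% (dC) and 0.472% (empty). In every setting dC stood below dPLD, and dPLD below wt and F-GATA3. The cause of each shift was not tested.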

Other observations

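Near gene starts, more of the members had fetal liver Brg1. With a listed start within 10 kb of the EBF1 summit, the wt share was 32.6% (26.0-39.8%, n = 187), and with none listed it was 18.8% (15.2-22.9%, n = 425). For dC the shares were 15.0% (10.2-20.9%) and 7.06% (4.81-9.92%). Of the 12 members in a promoter window, 10 had Brg1 in the fetal liver wt list (83.3%, 51.6-97.9%), among them Klk4, which encodes a kallikrein protease, Fetub, which encodes a fetuin, and Apbb1, which encodes an adaptor of the amyloid precursor protein. These 3 had Brg1 with wt alone, as did the members at Gm39984 and Olfr98. F-GATA3, dPLD and dC each had Brg1 at 5 of the 12. Over all EBF1 wt peaks in such windows the wt share was 95.5% (93.3-97.1%, n = 531). For F-GATA3, dPLD and dC it was 92.1%, 93.4% and 91.9%. With a start within 1 kb of the summit, the members' shares were 53.1% (wt), 40.6% (F-GATA3), 43.8% (dPLD) and 37.5% (dC; n = 32). Over all EBF1 wt peaks these were 91.7%, 88.3%, 90.0% and 88.6%. F-GATA3 thus did not stand above dPLD near starts. These groups were set up after the values had been seen and were not tested. Inside and outside gene bodies the wt shares were 20.9% (16.8-25.6%) and 24.7% (19.9-30.2%).

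Members with an A-MuLV Brg1 wt peak within 1 kb had fetal liver Brg1 at 36.2% with wt (22.7-51.5%, n = 47) and 29.8% with dC (17.3-44.9%). Members without one had it at 21.6% (18.3-25.1%, n = 589) and 7.64% (5.63-10.1%).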
